A study of Mus musculus with 6 samples.

Results

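Guanine nucleotide exchange factors of the DOCK (dedicator of cytokinesis) family were followed at the mRNA level in the forebrain of mice after short-term high-fat feeding. The genes were chosen by symbol, as the rows named Dock1, Dock2, Dock3, Dock4, Dock5, Dock6, Dock8, Dock9 and Dock10, which gave 9 of the 23282 gene entries in the count tables. The mice were male C57BL/6J animals of 8 to 10 weeks, labelled WT, that received a normal chow diet (NCD) or a high-fat diet (HFD, 60% of kcal from fat) for 10 days, with 3 libraries per diet. Each library held RNA of the whole forebrain, taken as a hemisphere without olfactory bulb and cerebellum. The labels give no animal behind a library and no further treatment, so p-values measure the spread between these libraries.

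DOCK proteins switch on the small GTPases Rac and Cdc42. Unlike most exchange factors for these GTPases, they carry out the exchange of GDP for GTP with a domain called DHR2, while a DHR1 domain binds phosphoinositides of the membrane. The active GTPases drive actin assembly through the WAVE and WASP proteins and PAK kinases, and in brain this controls axon growth, dendritic spines and the movement of microglia. The DOCK-A members (Dock1, Dock2 and Dock5) and DOCK-B members (Dock3 and Dock4) act mainly on Rac together with ELMO adaptors. Dock6 and Dock8 belong to DOCK-C, with Rac or Cdc42 as substrates, and Dock9 and Dock10 to DOCK-D, the Cdc42 exchange factors also known as zizimins.

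Dock8 had fewer counts in all HFD libraries than in any NCD library, while the libraries of the diets overlapped for the other 8 members. Libraries that do not overlap were found for 8.81% of all genes tested, so that 1 of 9 members is near the background. The member transcripts shared another feature, since 8 of 9 had their lowest level in the same library, HFD replicate 3. This library was also the lowest for 27.1% of all genes tested. Among genes with transcripts at least as long as that of Dock2, the share was 44.7%.

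The genes are large. On GRCm38, the assembly behind mm10, the members spanned 52.8 kb (Dock6) to 557 kb (Dock2), against a median of 24.9 kb over 13229 tested genes with a match in GENCODE vM21. Their longest transcripts had 6409 bases (Dock2) to 9988 bases (Dock5), against a median of 3.44 kb, and 48 (Dock8) to 56 exons (Dock10). Dock8 lies on chromosome 19 from 24999534 to 25202432 on the plus strand, Dock2 on chromosome 11 from 34226815 to 34783892 on the minus strand and Dock3 on chromosome 9 from 106892825 to 107231909 on the minus strand. The last 500 bases of the annotated transcripts, where reads of a 3′ library lie, shared no stretch of 50 bases with transcripts of another gene in 8 of the 9 members. Dock6 shared 2 of 3108 such stretches, which were taken at every base and so overlap each other. An exon of the antisense gene 4930524O07Rik covers the 3′ end of Dock3, with 1082 exonic bases in common, so the Dock3 count may hold reads of both where strand was not used. For Dock2, the antisense gene 4930403D09Rik shares 460 exonic bases, the nearest of them 80839 bases from the 3′ end.

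The sequences before the transcription starts set Dock2 apart from Dock8 and Dock3. In RefSeq (GRCm38.p6), 8 of the 9 members, all but Dock5, matched 11 promoters, of which the 250 bases before the start were searched on both strands for 5 short motifs. These were the TATA box, spelled TATAAA, and the CCAAT box. The GC box was searched as GGGCGG. For the core bound by ETS factors, only 1 spelling, AGGAAG, was searched. The E-box of basic helix-loop-helix factors was searched as CACGTG. The GC box was found in 7 of the 11 member promoters and in 32.7% of 32851 promoters of the same length. Dock2 was the only matched member without it in any promoter. No member promoter held the TATA box (0 of 11, against 12.4% of all promoters), 2 held the CCAAT box (33.8% of all), 4 the ETS core (29.5% of all) and 1 the E-box (6.02% of all). The windows of Dock8 (chr19:24999279-24999528, plus strand), Dock2 (chr11:34783906-34784155, minus strand) and Dock3 (chr9:107231910-107232159, minus strand) are shown because Dock8 differed between the diets, Dock2 is known from blood cells and microglia and Dock3 had the most counts. They are written 5′ to 3′ with the searched motifs in capitals, where 2 GC boxes of Dock3 share letters.
Dock8: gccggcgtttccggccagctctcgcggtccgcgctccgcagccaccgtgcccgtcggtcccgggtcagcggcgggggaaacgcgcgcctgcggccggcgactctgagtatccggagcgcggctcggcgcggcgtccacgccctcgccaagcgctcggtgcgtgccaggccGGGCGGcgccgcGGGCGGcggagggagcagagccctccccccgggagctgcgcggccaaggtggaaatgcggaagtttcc
Dock2: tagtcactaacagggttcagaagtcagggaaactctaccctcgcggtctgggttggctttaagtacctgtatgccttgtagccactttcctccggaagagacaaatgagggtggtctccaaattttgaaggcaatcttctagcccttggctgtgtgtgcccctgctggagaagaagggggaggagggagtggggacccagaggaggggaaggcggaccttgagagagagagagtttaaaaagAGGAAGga
Dock3: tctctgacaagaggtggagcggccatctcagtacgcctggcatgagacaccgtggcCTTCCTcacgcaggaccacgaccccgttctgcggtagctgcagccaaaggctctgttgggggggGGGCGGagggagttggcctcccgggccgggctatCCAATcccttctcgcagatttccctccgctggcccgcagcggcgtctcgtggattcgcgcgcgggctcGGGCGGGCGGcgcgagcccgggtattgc
The Dock8 window held 43 CpG dinucleotides, more than 99.3% of all promoters, and 2 GC boxes. Dock3 had 26 CpG, 3 GC boxes, 1 CCAAT box and 1 ETS core. Dock2 had 4 CpG, against a median of 6 over all promoters, and 1 ETS core. The Dock8 and Dock2 windows also hold CGGAAG, a spelling that was not searched and is not marked. Some promoters of Dock9 (3 and 7 CpG) and Dock10 (5 CpG) also lacked a GC box, beside another promoter of each gene that held it.

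The libraries held between 6842785 and 9689372 counts, of which the ribosomal RNA precursor Rn45s took 5.55% to 8.75%, with the highest share in HFD replicate 3. All 15 neuron markers, 15 oligodendrocyte markers and 10 astrocyte markers listed passed the count filter. Transcripts of other tissue were also present. Anterior pituitary markers summed to 1277 CPM, the count relative to library size, in HFD replicate 3. In the other libraries they summed to between 4.75 and 13.6 CPM. At an unadjusted p under 0.05 (edgeR), 5 of 6 liver transcripts tested were lower on the HFD, against 1.98% of all genes tested. Of 7 blood cell entries, 6 were higher, against 1.71% of all genes tested. These 6 were globin entries, and not all were separate. Hbb-b1, with counts of 1298, 1719 and 1394 on the NCD, nearly repeated Hbb-bs, with 1316, 1754 and 1419.

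**Figure D1:**
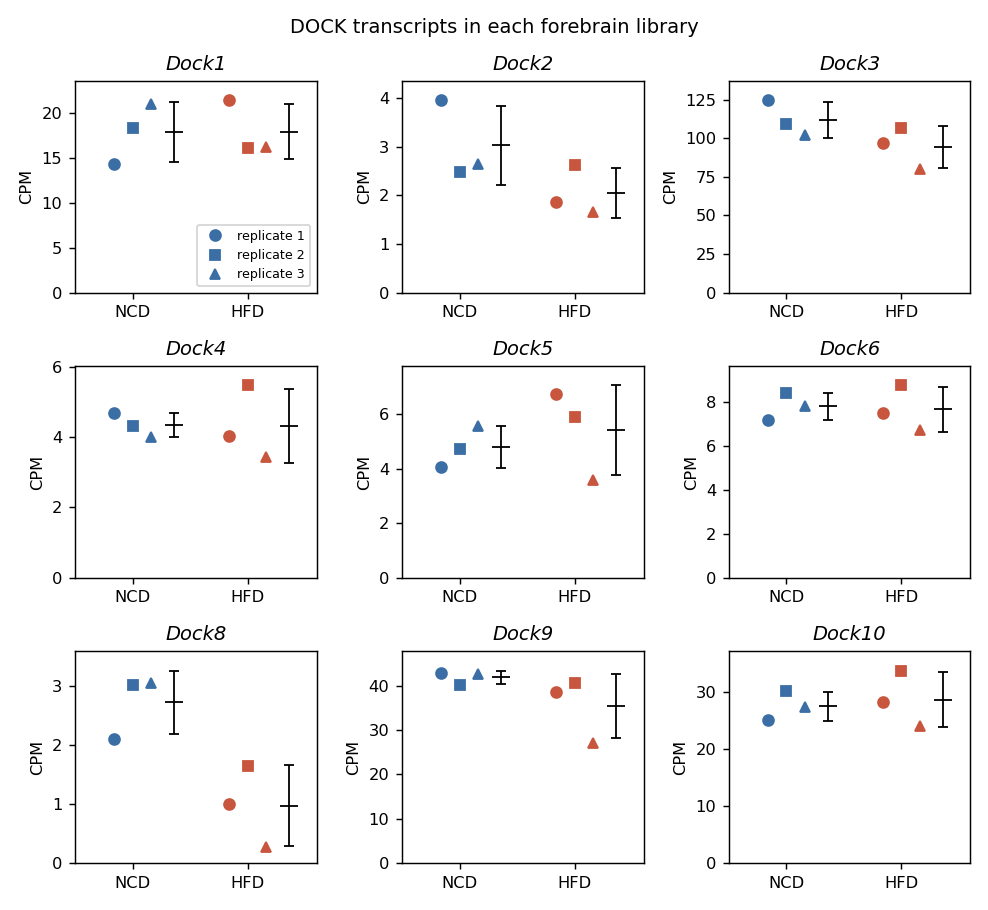
Level of each DOCK transcript in CPM (y axis, from 0) in the 3 NCD (blue) and 3 HFD (red) libraries, with one symbol per replicate and the mean ± SD of each diet in black. The Dock8 points of the HFD, 0.275 to 1.64 CPM, all lie under those of the NCD, 2.10 to 3.06 CPM, while the diets overlap in the other panels.

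For CPM, library sizes were first normalized by TMM. A count of 3, taken as the floor, was worth 0.316 to 0.432 CPM. All 9 members passed the count filter, although Dock8 and Dock2 were near its lower end, with mean counts above those of 6.29% and 9.72% of the genes tested. The mean count of Dock3 was above that of 85.8%. Divided by the length of the longest transcript, mean levels were 11.4 CPM per kb for Dock3, 4.77 for Dock9, 3.90 for Dock10, 2.63 for Dock1, 1.12 for Dock6, 0.511 for Dock5, 0.506 for Dock4, 0.395 for Dock2 and 0.237 for Dock8. Dock5 and Dock4, neighbours in this order, differed by less than the spread between replicates. Reads of 3′ libraries do not grow in number with transcript length, so this order is given for comparison only.

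Whether the HFD moved these transcripts was tested with edgeR's quasi-likelihood test across all 13771 genes that passed the filter. Of the 9 members, 1 had an unadjusted p under 0.05, namely Dock8, against 3.68% of all genes tested in either direction and 1.98% lower on the HFD. None was higher, against 1.71% of all genes. With a fold of at least 1.5 as well, Dock8 was again the 1 member called, against 1.28% of all genes, of which 0.53% were higher and 0.748% lower. The study itself had picked Dock8 from the same libraries, so its count is not independent evidence. After Benjamini-Hochberg adjustment over all genes, 0 members and 0 genes in all (0% of those tested) had a p under 0.05 in edgeR, while 507 genes did so unadjusted and after adjustment DESeq2 gave 2 genes, edgeR without a filter 23 and edgeR without NCD replicate 3 gave 3, with 0 members in each. The adjusted p of the members ran from 0.979 to 0.999. The fold change was below 0 on the log2 scale in 6 of 9 members, against 50.6% of all genes, and its median was -0.021 over the members and -0.00245 over all genes.

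**Figure D2:**
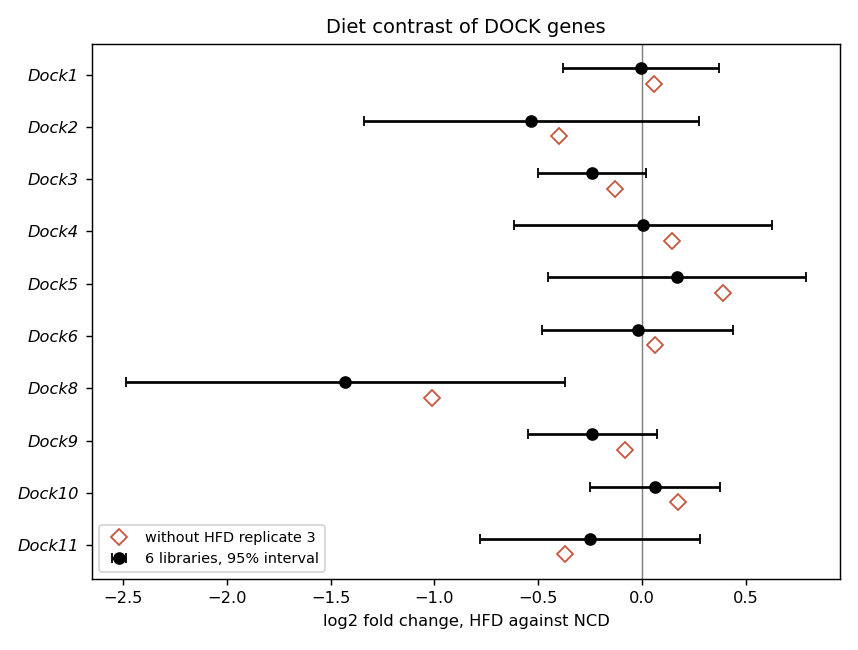
Log2 fold change of the HFD against the NCD (x axis) for the 9 members and for Dock11, with black points and bars for the 6 libraries and their 95% interval and open diamonds for the fit without HFD replicate 3. The interval of Dock8, -2.49 to -0.37, is the only one that leaves out 0.

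Dock8 activates Cdc42, and its loss causes an immune deficiency in people. Its counts were 17, 28 and 29 in NCD replicates 1 to 3, against 7, 15 and 2 in HFD replicates 1 to 3. In CPM these were 2.10, 3.02 and 3.06 against 1.01, 1.64 and 0.275. The highest HFD library thus lay under the lowest NCD library, and HFD replicate 3 was under the floor. The groups did not overlap for 1 of 9 members, against 8.81% of all genes tested in either direction and 4.49% with lower HFD libraries. The NCD mean was 2.72 ± 0.543 CPM (SD, n = 3) and the HFD mean 0.974 ± 0.683 CPM (SD, n = 3). This gave a log2 fold change of -1.43 (standard error 0.50, 95% interval -2.49 to -0.37) with an unadjusted p of 0.0111 and an adjusted p of 0.979 (edgeR). A two-sided exact permutation test gave p = 0.1, which no comparison of 3 with 3 libraries can go below.

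Counting error was wide at this depth. The exact Poisson 95% interval of the Dock8 count was 0.242 to 7.22 in HFD replicate 3 and 8.40 to 24.7 in HFD replicate 2, and the latter overlapped that of NCD replicate 1, 9.90 to 27.2. These intervals and the floor cover counting error only. Without HFD replicate 3 the log2 fold change of Dock8 was -1.01 with an unadjusted p of 0.0527, while it ran from -2.08 to -1.34 without any other single library, with unadjusted p-values of 0.00449 to 0.0366.

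In bulk tissue, fewer cells of a type and less RNA per cell cannot be told apart, so markers of the cells known to express Dock8 were set beside it. The 16 microglia markers were all tested, and 0 had an unadjusted p under 0.05. Their summed level was 586 to 596 CPM on the NCD against 596 to 633 CPM on the HFD (means of 589 and 613 CPM). Lymphocyte markers were scarce, with 1 of 16 tested and the B cell gene Ms4a1 at 0 in every library, and their sum was 6.36 to 8.53 CPM on the NCD against 5.91 to 7.77 CPM on the HFD. Macrophage and monocyte markers summed to 17.8 to 21.9 CPM on the NCD against 19.4 to 25.4 CPM on the HFD. Of the 10 listed, 7 were tested, 0 had an unadjusted p under 0.05 and 2 had a fold change below 0. F13a1, 1 of these 2, had counts of 35, 36 and 28 on the NCD against 15, 14 and 21 on the HFD. Its libraries did not overlap, which held in this direction for 4.49% of all genes tested. The log2 fold change of F13a1 was -0.77 (unadjusted p of 0.0514, edgeR), while the median over the 7 was 0.15. The 10 granulocyte markers summed to 6.90 to 7.80 CPM on the NCD against 7.43 to 11.7 CPM on the HFD, and 3 were tested. S100a9 was higher on the HFD at an unadjusted p under 0.05 (edgeR), against 1.71% of all genes, with a log2 fold change of 1.35. Its counts were 10, 12 and 13 on the NCD against 33, 17 and 26 on the HFD. S100a8 and Mmp9 had log2 fold changes of 0.71 and -0.087, with unadjusted p-values over 0.05.

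The genes whose pattern over the 6 libraries was most like that of Dock8, by the root mean square difference in centred log2(CPM + 1) among 13770 genes, were Foxa2 (0.134), Icam1 (0.162), Tkfc (0.189), Gch1 (0.193) and Aldh3b2 (0.196). Dock8 was searched because it was lower on the HFD in these libraries, so the direction of its closest genes was set by that choice. The paper, from the same libraries, also lists Foxa2, Icam1, Gch1 and Aldh3b2 among the genes changed by the diet. Reads of Foxa2 were few, at 12 to 17 per NCD library and 4, 10 and 0 in HFD replicates 1 to 3. Icam1, an adhesion molecule of endothelium and leukocytes, had counts of 17, 26 and 28 on the NCD against 7, 15 and 5 on the HFD. Gch1, the first enzyme of tetrahydrobiopterin synthesis, had 27, 37 and 31 on the NCD against 12, 14 and 4 on the HFD. Exons of Gm47079 cover the 3′ end of Icam1 on the other strand, and Tkfc shares exonic bases with Cyb561a3 near its 3′ end. Foxa2 and Gch1 are known from monoamine neurons of the midbrain, and a list of 11 markers of midbrain and hindbrain monoamine neurons was added after these values were seen. Its summed level was 63.7, 86.4 and 91.8 CPM in NCD replicates 1 to 3, against 73.0, 66.0 and 40.7 CPM in HFD replicates 1 to 3. Of the 7 genes tested, 3 were lower on the HFD at an unadjusted p under 0.05, namely Th, Tph2 and Slc6a4, against 1.98% of all genes, and none of the list was at 0. The libraries of the diets overlapped for all 3. The list was prompted by genes picked in these libraries for their likeness to Dock8, so its count is not independent evidence. The others, Slc6a3, Slc18a2, Ddc and En1, had log2 fold changes of -0.14, -0.21, -0.24 and -0.43 with unadjusted p-values over 0.05 (edgeR). Th, the tyrosine hydroxylase gene, had counts of 100, 189 and 145 on the NCD against 60, 128 and 26 on the HFD. The part of this tissue in the Dock8 difference was not tested.

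Dock2, the Rac exchange factor of blood cells and microglia, followed Dock8 in direction but not in its separation. Its counts were 32, 23 and 25 on the NCD against 13, 24 and 12 on the HFD, or 3.95, 2.48 and 2.63 CPM against 1.87, 2.62 and 1.65 CPM. HFD replicate 2 lay among the NCD libraries. The log2 fold change was -0.53 (standard error 0.38, 95% interval -1.34 to 0.27, unadjusted p of 0.180), an interval that spans 0.395 to 1.21 times the NCD level. The microglia markers given for Dock8 apply here too.

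Of the other DOCK-A members, Dock1 is the founding member, once known as DOCK180, and works with ELMO in cell migration and engulfment. It had 14.3, 18.3 and 21.1 CPM on the NCD against 21.4, 16.2 and 16.2 CPM on the HFD. NCD replicate 1 was the lowest and the other libraries overlapped, with a log2 fold change of -0.0055 (95% interval -0.38 to 0.37). Dock5, a Rac activator known from osteoclasts, had 4.07, 4.75 and 5.58 CPM on the NCD against 6.77, 5.90 and 3.57 CPM on the HFD. HFD replicates 1 and 2 were above all NCD libraries and replicate 3 was under them, for a log2 fold change of 0.17 (95% interval -0.45 to 0.79) that was 0.39 without HFD replicate 3 (unadjusted p of 0.190) and -0.0080 without HFD replicate 1.

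Among the DOCK-B members, Dock3, a neuronal Rac activator that promotes axon outgrowth, gave the most precise values. It had 125, 109 and 102 CPM on the NCD against 96.9, 107 and 79.9 CPM on the HFD, from counts of 1009, 1014 and 966 against 673, 978 and 581. HFD replicates 1 and 3 were under all NCD libraries, and replicate 2 was between them. The NCD mean was 112 ± 11.6 CPM (SD, n = 3) and the HFD mean 94.5 ± 13.6 CPM (SD, n = 3), a log2 fold change of -0.24 (standard error 0.12, 95% interval -0.50 to 0.021, unadjusted p of 0.0689). The Dock3 value moved with single libraries, being -0.13 (unadjusted p of 0.223) without HFD replicate 3, -0.16 (unadjusted p of 0.288) without NCD replicate 1, -0.30 (unadjusted p of 0.0390) without NCD replicate 3 and -0.34 (unadjusted p of 0.0298) without HFD replicate 2. Dock4, which acts on Rac and Rap and is found at dendritic spines, had 4.69, 4.31 and 4.003 CPM on the NCD against 4.03, 5.46 and 3.44 CPM on the HFD, with the highest and lowest library both on the HFD. Its log2 fold change was 0.0053 (95% interval -0.62 to 0.63).

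Dock6, a DOCK-C member that acts on Rac and Cdc42, had 7.16, 8.41 and 7.80 CPM on the NCD against 7.49, 8.74 and 6.74 CPM on the HFD. These ranges overlapped, and the log2 fold change was -0.021 (95% interval -0.48 to 0.44).

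In the DOCK-D subfamily, Dock9, a Cdc42 activator involved in dendrite growth, had 43.0, 40.1 and 42.6 CPM on the NCD against 38.6, 40.5 and 27.1 CPM on the HFD. The NCD libraries were close together, with 41.9 ± 1.53 CPM (SD, n = 3), HFD replicates 1 and 3 were under all of them, and replicate 3 was the farthest. The log2 fold change of -0.24 (standard error 0.15, 95% interval -0.55 to 0.070, unadjusted p of 0.121) was -0.080 without HFD replicate 3. Dock10, which acts on Cdc42 and is present in lymphocytes and neurons, had 25.1, 30.1 and 27.4 CPM on the NCD against 28.2, 33.8 and 24.1 CPM on the HFD. The HFD libraries enclosed those of the NCD, and the log2 fold change was 0.063 (95% interval -0.25 to 0.38). Dock11, a Cdc42 activator of the same subfamily, is not among the members and was taken for comparison. It had a log2 fold change of -0.25 (95% interval -0.78 to 0.28).

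HFD replicate 3 thus held the lowest level of 8 of 9 members, all but Dock1, whose lowest level was in NCD replicate 1. It held the lowest level of 27.1% of all genes tested, followed by NCD replicate 3 with 21.7%, and the other libraries held 11.5% to 14.0%. Among the 1680 tested genes whose longest transcript was at least as long as that of Dock2, the shortest of the members, the share was 44.7%, and in any other library it was between 8.27% and 15.4%. The median deviation of HFD replicate 3 from the mean of the other libraries, in log2(CPM + 1), was -0.42 over the members, -0.14 over these long transcripts and 0.00437 over all genes tested. In the other libraries the same median over the members lay between -0.04 and 0.13. The summed level of the members was 229, 221 and 216 CPM in NCD replicates 1 to 3, against 206, 222 and 163 CPM in HFD replicates 1 to 3. Without HFD replicate 3, the fold change was below 0 in 4 of 9 members and its median was 0.056, and without NCD replicate 2 it was below 0 in 4 of 9 members as well, with a median of 0.0036. The part of transcript length, of the pituitary RNA or of the Rn45s share in this library's low DOCK levels was not tested.

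**Figure D3:**
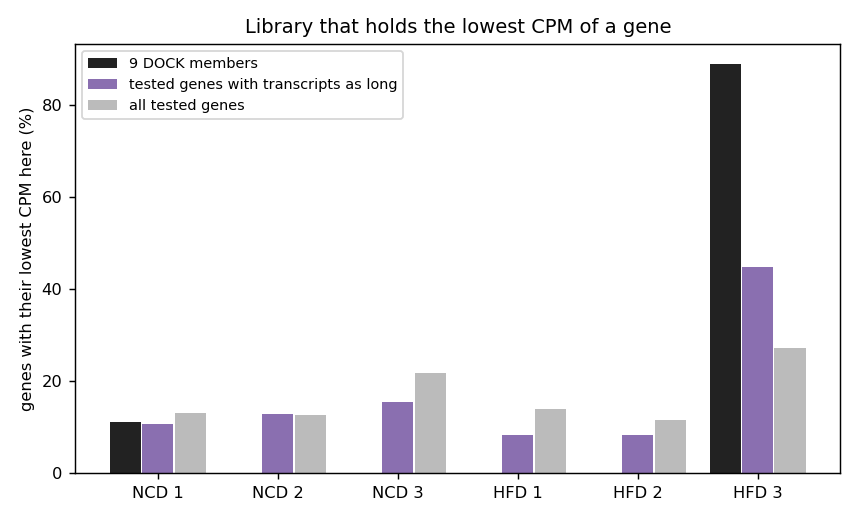
Share of genes (y axis, in %) that had their lowest CPM in each library (x axis), for the 9 DOCK members (black), the 1680 tested genes with a longest transcript of at least 6409 bases (purple) and all 13771 genes tested (grey). HFD replicate 3 has the highest share in all 3 sets, with 8 of 9 members, 44.7% and 27.1%, and NCD replicate 3 follows with 21.7% of all genes.

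The partners, substrates and effectors of DOCK proteins were taken from lists written with general knowledge of the pathway. Of 88 listed genes, 82 were tested. At an unadjusted p under 0.05, 2 were higher and 2 were lower on the HFD, or 4.88% against 3.68% of all genes, and 0 passed after adjustment (edgeR). The log2 fold change was within 0.3 of 0 in 75 of the 82 genes and had a median of -0.046.

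Among the ELMO and Crk adaptors, 1 of 7 tested was lower and 0 were higher. Bcar1, the adaptor p130Cas that recruits Crk and Dock1, had counts of 363, 405 and 385 on the NCD against 276, 288 and 257 on the HFD. Its groups did not overlap, the log2 fold change being -0.28 (standard error 0.13) at an unadjusted p of 0.0437. Elmo1 and Elmo2, which bind DOCK-A and DOCK-B proteins, had the highest levels of the list and log2 fold changes of -0.065 and -0.20. The Elmo2 libraries did not overlap, although its unadjusted p was 0.0951. The ends of the Bcar1 and Elmo2 transcripts share 10 of 905 and 19 of 2894 overlapping stretches of 50 bases with other genes. Of the 11 small GTPases listed, Rap1a and Rap1b among them, 0 had an unadjusted p under 0.05. Rac1 and Cdc42, the substrates, had log2 fold changes of -0.010 and 0.012 with standard errors of 0.099 and 0.10, and exons of Daglb cover the 3′ end of Rac1 on the other strand.

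Downstream, 0 of 15 WAVE and WASP regulators and 0 of 5 PAK kinases had an unadjusted p under 0.05. Cyfip2 and Nckap1, subunits of the WAVE complex, had log2 fold changes of -0.067 and 0.017, and Pak1 and Pak3 had 0.0011 and -0.073. Of 20 other exchange factors for Rac and Cdc42, 1 was higher. Fgd4, which acts on Cdc42, had 22.4 ± 4.37 CPM (SD, n = 3) under the NCD and 31.0 ± 3.82 CPM (SD, n = 3) under the HFD, for a log2 fold change of 0.46 (unadjusted p of 0.0102). The ends of its transcripts share 111 of 4538 overlapping stretches of 50 bases with other genes, so its count may hold reads of other genes. Kalrn and Rasgrf1, the exchange factors with the highest levels, had log2 fold changes of -0.027 and -0.13. Of 18 GTPase-activating proteins and inhibitors, 1 was lower. Arhgap17 had counts of 44, 53 and 71 on the NCD against 31, 37 and 22 on the HFD. Its log2 fold change was -0.69 (unadjusted p of 0.0251, edgeR), and 22 of its 2842 stretches were shared with other genes. Chn1 and Srgap3 had log2 fold changes of 0.032 and -0.12. Of 7 tested partners of DOCK8, 1 was higher. Mob1b, a scaffold of the Hippo kinases, had counts of 8, 13 and 14 on the NCD against 15, 23 and 21 on the HFD, with a log2 fold change of 0.95 (unadjusted p of 0.0345). Stk4, a kinase upstream of it, and Ptk2b had log2 fold changes of 0.23 (unadjusted p of 0.0625) and -0.14. These calls depended on the tool, the filter or single libraries. The count of called genes was 0 among the DOCK8 partners with DESeq2, without a filter, with at least 10 counts in every library and without any 1 library other than NCD replicate 3. It was 0 among the adaptors with DESeq2, with quantile normalization and limma, with a replicate block and without NCD replicate 2, 0 among the other exchange factors without NCD replicate 3, and 0 among the activating proteins and inhibitors without NCD replicate 3 and without HFD replicate 3.

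**Figure D4:**
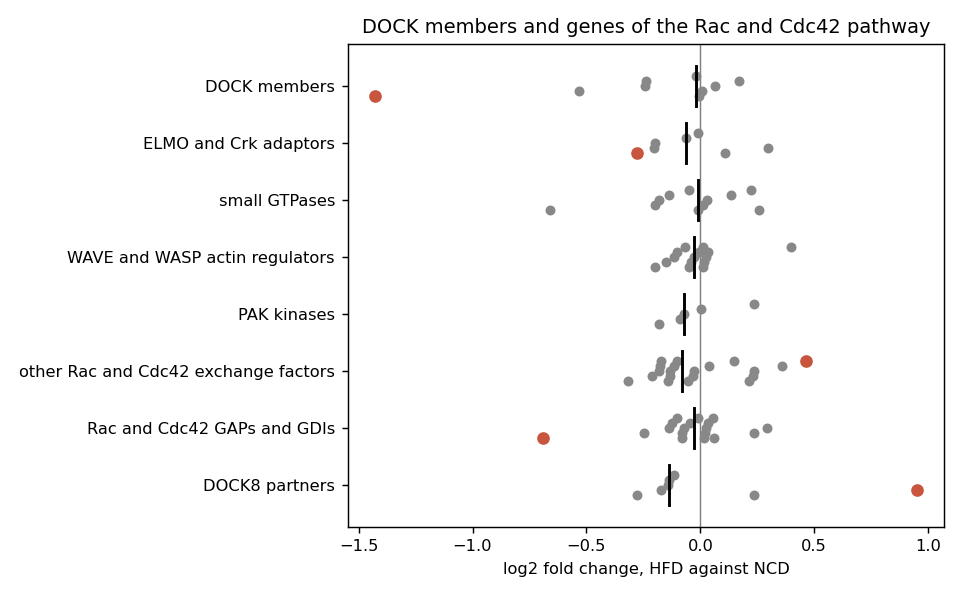
Log2 fold change of the HFD against the NCD (x axis) for each tested gene of the DOCK members and the 7 pathway lists (rows), with genes at an unadjusted p under 0.05 in red, other genes in grey and the median of each list as a black bar. Dock8 lies farthest from 0, at -1.43, and the medians of the pathway lists lie between -0.14 and -0.010.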

How the data were processed

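Forebrain RNA of 3 NCD and 3 HFD libraries was analysed. The authors made QuantSeq 3′ libraries, trimmed the single-end reads of 75 bp, aligned them to mm10 with Bowtie2 and deposited raw counts of reads for each gene from Bedtools, in which unique as well as multiple alignments were used. Annotation, strand and versions are not given in the sources used here. Counts were fitted with edgeR 4.0.16 in R 4.3.3 (filterByExpr at its minimum count, 10, and minimum total, 15, TMM, glmQLFit and glmQLFTest, no covariate) over 13771 genes of 23282 entries, with Benjamini-Hochberg adjustment. Standard errors were the log2 fold change over the square root of F. Library totals of 6842785 to 9689372 put a count of 3 at 0.316 to 0.432 CPM. Alternatives used DESeq2 1.42.0, limma 3.58.1, other scalings and filters, and each library left out. The edgeR and DESeq2 fits were tested on simulated counts. The members and lists were chosen with earlier results of these data known. Named were all members, Dock11, pathway genes with an unadjusted p under 0.05 and the 2 highest of each list, and the 5 genes most like a member with an unadjusted p under 0.05 and a fold of at least 1.5. Marker genes with an unadjusted p under 0.05 or at 0 were to be named, but most of those of blood, liver and other tissue are given as counts. Genes outside this rule were chosen after their values were seen. Some genes of these lists are not reported here. Positions come from GENCODE vM21 and promoters from RefSeq.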

Additional observations from a re-analysis of the deposited data

How the results depend on the processing

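The count of members with an unadjusted p under 0.05 was 1 and was 2 without a filter, where Dock3 joined Dock8, and 0 with at least 10 counts in every library, where Dock8 was not tested and has no value. With each library left out in turn it ran from 0 to 2. The count after adjustment was 0 in all 16 alternatives. The log2 fold change of Dock8 kept its sign in all 15 alternatives that gave a value and ran from -2.08 to -1.01 with each library left out. With quantile normalization and limma it was -0.94, on the log2(CPM + 1) scale, which understates the change of genes with low counts. The median of the members ran from -0.21, without HFD replicate 2, to 0.056, without HFD replicate 3. Over the other 8 members, 111 of 128 fits kept sign and side of the threshold, 3 (Dock3) passed it and 14 changed sign. With quantile normalization the log2 fold change was 0.028 for Dock1 and -0.021 for Dock4, and with library size alone it was -0.013 for Dock4. With a library left out, Dock1 ran from -0.15 to 0.13, Dock4 from -0.21 to 0.14, Dock5 from -0.0080 to 0.39, Dock6 from -0.13 to 0.063 and Dock10 from -0.076 to 0.18. The cause was not tested. The labels do not say whether libraries with the same replicate number belong together. The correlations of same-numbered deviations were -0.039, 0.031 and -0.075, and not every library correlated best with its own number. With 3 libraries per diet, such correlations cannot decide whether the numbers mark a shared batch. The highest Rn45s share of each diet was in replicate 3, with 7.35% on the NCD and 8.75% on the HFD. A batch was not tested beyond the replicate block. With a replicate block, Dock8 was at -1.51 (unadjusted p of 0.0154), the count of members at an unadjusted p under 0.05 stayed at 1 and Dock4 was at -0.016.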
